A study of Mus musculus with 5 samples.

Results

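Malat1 and Neat1 are neighbouring genes of mouse chromosome 19 that encode long noncoding RNAs, and the stretch that holds them was described here by its DNase I hypersensitive sites in 3T9 fibroblasts. The members are all called peaks that overlap a 250 kb window of chromosome 19, from 5.7 Mb to 5.95 Mb on the mm9 build. The window was selected on the width of its called intervals in these same lists, so the widths and their ranks are given as a description. Malat1 lies at about 5.796 to 5.803 Mb and Neat1 at about 5.825 to 5.846 Mb, positions that are rounded and hold to about 0.5 kb. The window held 30 peaks of 35149 in the vehicle list, 38 of 44956 in the duplicated list and 37 of 47621 in the 4-OHT list. The vehicle and 4-OHT lists are named for their treatment, and the duplicated list for its deposit under both treatments. Merged where they overlapped by at least 1 bp, these peaks formed 39 sites of the 52181 of the series.

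DNase-seq maps chromatin that DNase I can cut, and the study used it to compare sites before and after activation of Myc. The cells were 3T9 fibroblasts, an immortalised line of embryonic fibroblasts (E13.5, strain given as mixed). Their genotype was c-myc flox/flox, and they had been infected in vitro with MycER, a Myc and estrogen receptor fusion that 4-hydroxytamoxifen (4-OHT) activates. All 5 samples share this genotype, and the labels do not say whether the floxed alleles had been deleted or what drives MycER. The groups were ethanol vehicle at 0 h (2 libraries), 400 nM 4-OHT for 4 h (2 libraries) and 1 input of sonicated DNA, which was not analysed here. One and the same list was deposited for 4-OHT replicate 1 and for vehicle replicate 2, which is the duplicated list. The vehicle list is that of vehicle replicate 1 and the 4-OHT list that of 4-OHT replicate 2, the library whose title has the letter B, so treatment and letter cannot be told apart. Each treatment thus has 1 list that was deposited under it alone, differences between lists could not be checked on replicates, and there are no p-values. Depth in reads is unknown. In a population of cells, a site accessible in fewer cells and a site less accessible in each cell cannot be told apart. The cell type label was not checked against marker genes, because the mm9 positions of other genes were not used here.

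The RNA of Malat1 is among the most abundant nuclear RNAs of mammalian cells and gathers in nuclear speckles, bodies rich in splicing factors. Its 3′ end is cut by RNase P, which releases a small tRNA-like RNA (mascRNA). Neat1 makes a short and a long RNA from a shared start, and the long one is the scaffold on which paraspeckles, another nuclear body, assemble. Both genes are read toward lower coordinates, so the start of each is at its higher coordinate. In the order of RefSeq genes (GRCm38.p6), Frmd8 is the neighbour on the Neat1 side.

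The start of Neat1 lay inside one very broad called interval in every list. In the vehicle list it ran from 5838208 to 5850894 (12687 bp), in the duplicated list from 5838105 to 5850949 (12845 bp) and in the 4-OHT list from 5838110 to 5850899 (12790 bp). The 3 lists thus gave nearly the same interval, with a mean width of 12774 bp and an SD of 80.2 bp over the lists. Its score was 3100 in every list, the value at which the scores of the files pile up, so no difference in score between lists could be seen here. The interval reached from 4.89 to 4.95 kb upstream of the Neat1 start to between 7.79 and 7.9 kb inside the gene. Between 61.4% and 61.7% of it lay in the gene, and it covered 37.1% to 37.6% of the gene's 21 kb, all of it on the 5′ side. The start region that the short and the long RNA share is therefore under the interval, and the 3′ part of the long RNA is not. The distances and shares given here rest on gene positions that hold to about 0.5 kb. They are thus less exact than their ranges over the lists.

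The Neat1 interval was the widest peak of chromosome 19 in each list, where it ranked 1 of 1231 peaks (vehicle), 1 of 1540 (duplicated) and 1 of 1683 (4-OHT). Over all chromosomes it ranked 3, 7 and 3 in the same order. Its lead over the next peak of the chromosome differed between lists. In the vehicle list the next widest peak measured 6577 bp (47386694 to 47393270), and the Neat1 interval was 1.93 times as wide. In the duplicated list the next was 9539 bp wide (46522266 to 46531804, ratio 1.35), and in the 4-OHT list 11453 bp (47385055 to 47396507, ratio 1.12). The width at Neat1 was nearly the same in each list, while the next widest peak was wider in both other lists than in the vehicle list. That next peak was at another place in the duplicated list, so its widths do not follow 1 site. None of the other peaks among the 5 widest of chromosome 19 was in the window. The plot of widths by rank shows this distance to the rest.

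**Figure D1:**
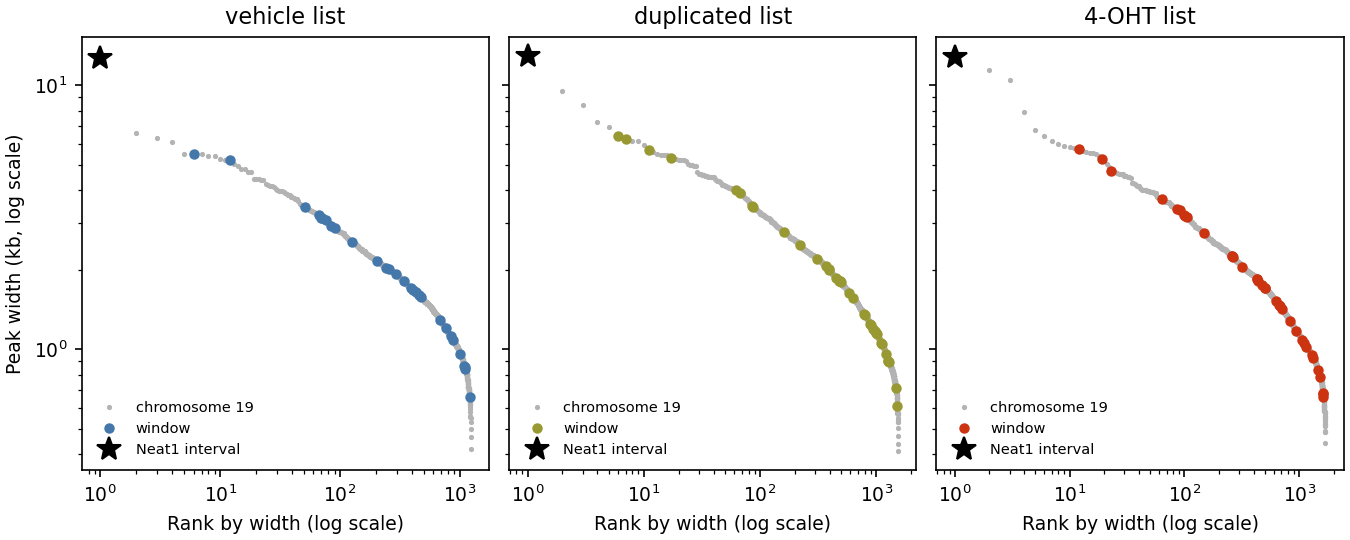
Width of every peak of chromosome 19 (kb, log scale) against its rank by width (log scale), 1 panel per list; grey points are all peaks, coloured points those of the window and the star the interval at the Neat1 start. The star is at rank 1 in each panel, at 12687, 12845 and 12790 bp, and the gap to the next peak is widest in the vehicle list.

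The edges of the Neat1 interval were called at close positions. Its starts fell within 103 bp of each other over the 3 lists, and its ends within 55 bp. Among the 216 sites of the series with a single peak of 4 kb or more in each list, the median range was 162 bp for the starts and 144 bp for the ends. Starts as close were found at 78 of these sites and ends as close at 32, each counted by itself and with the Neat1 site included. Starts or ends as close were thus not particular to Neat1. Of the 216 sites, 1 was wider than the Neat1 interval when each was taken at its narrowest over the lists.

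The rest of the Neat1 gene carried weaker peaks, most of which were wide for their score. Directly on the 3′ side of the broad interval, the site from 5833221 to 5838023 was cut into 2 peaks in the vehicle list (scores 180 and 639, widths 1578 and 2940 bp), 2 in the duplicated list (719 and 330, 3468 and 1233 bp) and 3 in the 4-OHT list (162, 379 and 245, 1751, 1522 and 1016 bp). The vehicle list was cut at 5835074 and the duplicated list at 5836724, and the 4-OHT list had a cut near each of these (5834971 and 5836603). The gap that parted this site from the broad interval measured 184 bp (vehicle), 86 bp (duplicated) and 423 bp (4-OHT). With peaks up to 500 bp apart joined, which also takes in a weak peak on the upstream side in the duplicated and 4-OHT lists, the region became 17398 bp (vehicle), 19505 bp (duplicated) and 19116 bp (4-OHT), and it was again the widest of chromosome 19 in each list.

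The 3′ end of Neat1 had a site of its own, from 5821716 to 5825724, which crosses the gene's rounded end at 5.825 Mb. It was 1 peak of 4009 bp with a score of 1039 in the duplicated list and 1 peak of 3692 bp with a score of 849 in the 4-OHT list. In the vehicle list it was a pair of peaks that were 12 bp apart, 2034 bp (score 253) and 1702 bp (score 127) wide. The span was thus about the same in the lists while the vehicle scores were lower.

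Between these sites the middle of Neat1 had a peak in the 4-OHT list alone, from 5828091 to 5830846 (2756 bp, score 253). The vehicle list had no peak for 7793 bp there and the duplicated list none for 7532 bp. This was the 1 site at or between the genes that was not in all lists. It was wide for so low a score, since 99.9% of the 2772 peaks of the 4-OHT list with a score within 10% of its own were narrower. It was also the 1 site of the window that the 4-OHT list held against the vehicle list when lists of equal length were compared. Whether it depends on treatment was not tested.

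On the upstream side of Neat1, a weak peak adjoined the broad interval in both lists other than the vehicle list. It ran from 5850966 to 5852761 in the duplicated list (1796 bp, score 175) and from 5851058 to 5852336 in the 4-OHT list (1279 bp, score 104). Beyond it lay the longest stretch of the window without a peak in any list, 17.7 kb from 5852762 to 5870429.

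**Figure D2:**
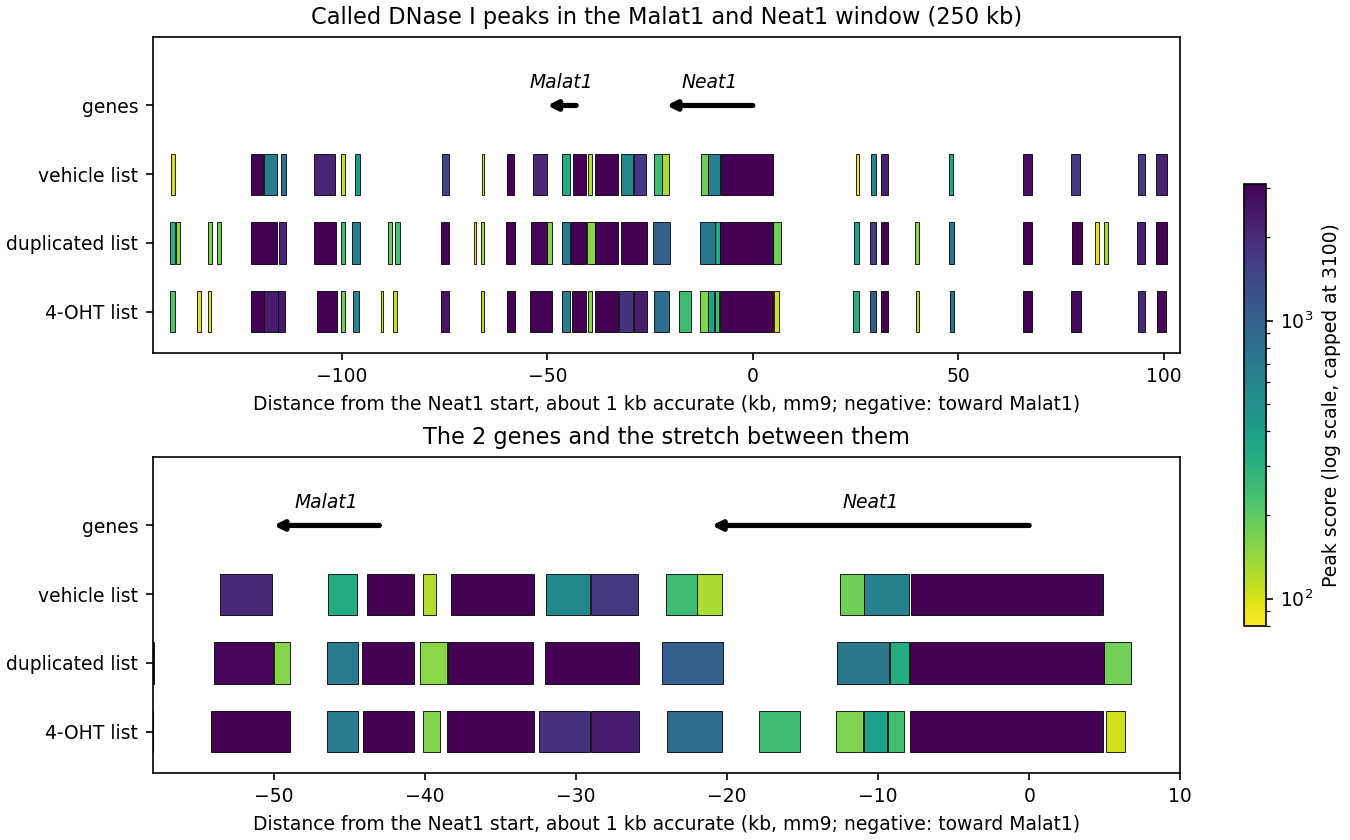
Called peaks of the 3 lists along the window (top) and from Malat1 to Neat1 (bottom), by distance from the Neat1 start (kb); the colour gives the score on a log scale capped at 3100, and the arrows give the genes and their direction. The broad interval spans the Neat1 start in all lists, peaks follow each other closely from there past Malat1, and the peak in the middle of Neat1 is in the 4-OHT list alone.

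The 22 kb between the genes were the most densely called stretch. Peaks covered 80.2% of it in the vehicle list, 87.9% in the duplicated list and 85.1% in the 4-OHT list. A broad peak stood about 4.5 to 10.2 kb upstream of the Malat1 start, from 5807713 to 5813204 in the vehicle list (5492 bp), 5807513 to 5813186 in the duplicated list (5674 bp) and 5807505 to 5813245 in the 4-OHT list (5741 bp). Its score was 3100 in all lists, and it ranked 6, 11 and 12 by width on chromosome 19. It is wider than any peak that overlaps Malat1 itself, and it lies in neither gene.

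The next site toward Neat1, from 5813554 to 5820190, was a single peak of 6250 bp with a score of 3100 in the duplicated list, rank 7 on chromosome 19. In the vehicle list it was cut into peaks of 2867 bp (score 565) and 3093 bp (score 1734) that were 105 bp apart. In the 4-OHT list the cut left 26 bp between peaks of 3410 bp (score 1835) and 3196 bp (score 2350). The first peak ended at 5816906 and at 5816963, so both cuts lay at nearly the same place, and the width of this site depends on a narrow gap. Between the start of Malat1 and the broad peak upstream of it was a weak site, with scores of 123, 152 and 157 and widths of 858, 1806 and 1085 bp in the vehicle, duplicated and 4-OHT lists.

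The Malat1 start was under a strong peak that was much narrower than the one at Neat1. It ran from 5802152 to 5805301 in the vehicle list (3150 bp), 5801827 to 5805322 in the duplicated list (3496 bp) and 5801929 to 5805301 in the 4-OHT list (3373 bp). All 3 scores were 3100, and the ends on the upstream side fell within 21 bp of each other, about 2.3 kb upstream of the start. The peak ranked 69, 85 and 91 by width on chromosome 19, far behind that of Neat1. Of the peaks at or above a score of 3100, 83.2%, 87.4% and 85.4% were narrower. The promoter under this peak is shown because it is the RefSeq entry held for a member, 300 bases on the minus strand of GRCm38.p6, from 250 before to 50 after the start. It was not matched to mm9. Capitals mark each TGACG, the core of cAMP response elements, on either strand (CGTCA as read here), and the E-box CANNTG:

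Malat1 promoter: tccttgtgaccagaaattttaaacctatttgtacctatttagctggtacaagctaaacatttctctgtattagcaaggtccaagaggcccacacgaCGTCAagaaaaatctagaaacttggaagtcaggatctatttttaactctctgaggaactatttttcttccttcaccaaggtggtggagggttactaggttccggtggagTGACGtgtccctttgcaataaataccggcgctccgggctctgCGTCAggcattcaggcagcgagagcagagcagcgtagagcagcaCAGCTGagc

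The sequence held TGACG at 3 places, at -154, -45 and -3 from the start (the base before the start is -1, and the position is that of the first base as read). At least 1 match was found in 20.8% of the 32841 promoters of the same length, and 3 or more in 1.04%. The E-box CANNTG matched once, as CAGCTG at 42 after the start, as it did at least once in 72.3% of promoters. The E-box that Myc and Max prefer, CACGTG, which is a special case of CANNTG, was not among these letters, and 7.15% of promoters held it. TGACG was chosen after the sequence had been seen, and the matches are letters in a window, not sites of binding.

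Malat1 had a pair of further sites. Inside the gene a peak stood at nearly the same place in every list, from 5799570 to 5801500 in the vehicle list (1931 bp, score 334), 5799530 to 5801595 in the duplicated list (2066 bp, 694) and 5799563 to 5801610 in the 4-OHT list (2048 bp, 687). Its starts fell within 40 bp of each other. At the 3′ end, where mascRNA is cut off, the vehicle list had a peak from 5792484 to 5795926 (3443 bp, score 2062). The duplicated list had one from 5792055 to 5795970 (3916 bp, 2937) and a weak one right beside it to 5797071 (1058 bp, 156). The 4-OHT list had 1 peak over the whole span, from 5791861 to 5797094 (5234 bp, 3100). This site lay mostly beyond the 3′ end of the gene, and it was the widest peak overlapping Malat1 in the 4-OHT list, rank 19 on chromosome 19. The vehicle and duplicated peaks end short of the rounded gene end by less than the rounding, so their overlap with Malat1 cannot be settled. For the same reason, the covered share of the gene's 7 kb, 39.7% in the vehicle list, 61.4% in the duplicated list and 60.2% in the 4-OHT list, is uncertain.

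From the lower end of Malat1 to the start of Neat1, 50 kb in all, peaks covered 66.9% of the bases in the vehicle list, 73.9% in the duplicated list and 77.2% in the 4-OHT list. Between its first and last peak, chromosome 19 was covered to 3.39%, 4.44% and 4.53% in these lists. Covered share was also above the chromosome's on both sides of the genes, with 24.2% to 33.7% of the window below Malat1 and 17.4% to 23.9% of the window above Neat1. Peaks covered 74.8 kb of the whole window in the vehicle list, 94.2 kb in the duplicated list and 87.8 kb in the 4-OHT list. When the genome was laid out in stretches of 250 kb so that the window was one of them, it ranked 1 of 6214 stretches with a peak in the vehicle list, 1 of 6441 in the duplicated list and 2 of 6597 in the 4-OHT list. The stretch ahead of it in the 4-OHT list was also on chromosome 19, at 47200001 to 47450000, with 88.4 kb covered. By number of peaks the window ranked lower over all chromosomes (5, 8 and 10), so its place rests on wide peaks as well as many.

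**Figure D3:**
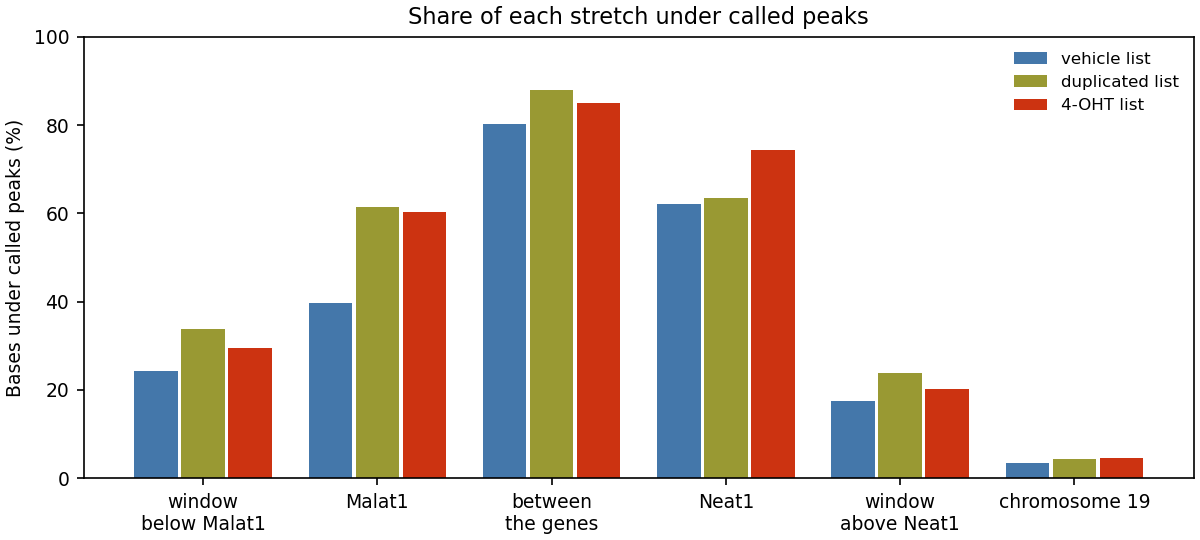
Share of bases under called peaks (%, bars from 0) for the window below Malat1, Malat1, the stretch between the genes, Neat1, the window above Neat1 and chromosome 19 from its first to its last peak, with 1 bar per list. The stretch between the genes reaches 80.2% to 87.9%, and chromosome 19 stays at 3.39% to 4.53%.

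Most peaks at or between the genes were wide for their score, and few in the rest of the window were. Each peak was set against the peaks of its own list with a score within 10% of its own, or, from a score of 3100 on, against all peaks at or above it. At or between the genes, 10 of 12 peaks of the vehicle list, 8 of 11 of the duplicated list and 8 of 13 of the 4-OHT list were wider than at least 90% of these. In the rest of the window the counts were 2 of 18, 3 of 27 and 3 of 24. They include broad peaks below Malat1, with 99.6% narrower for that from 5739189 to 5744397 in the vehicle list. The median share of narrower peaks was 97.3%, 98% and 96.9% at or between the genes and 52.4%, 59.1% and 61.7% elsewhere in the window. The weak peak at the 3′ end of Neat1 in the vehicle list is an example, with 1702 bp at a score of 127, where the median width was 913 bp. These shares describe the peaks and were not tested, since the window had been chosen by its widths.

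**Figure D4:**
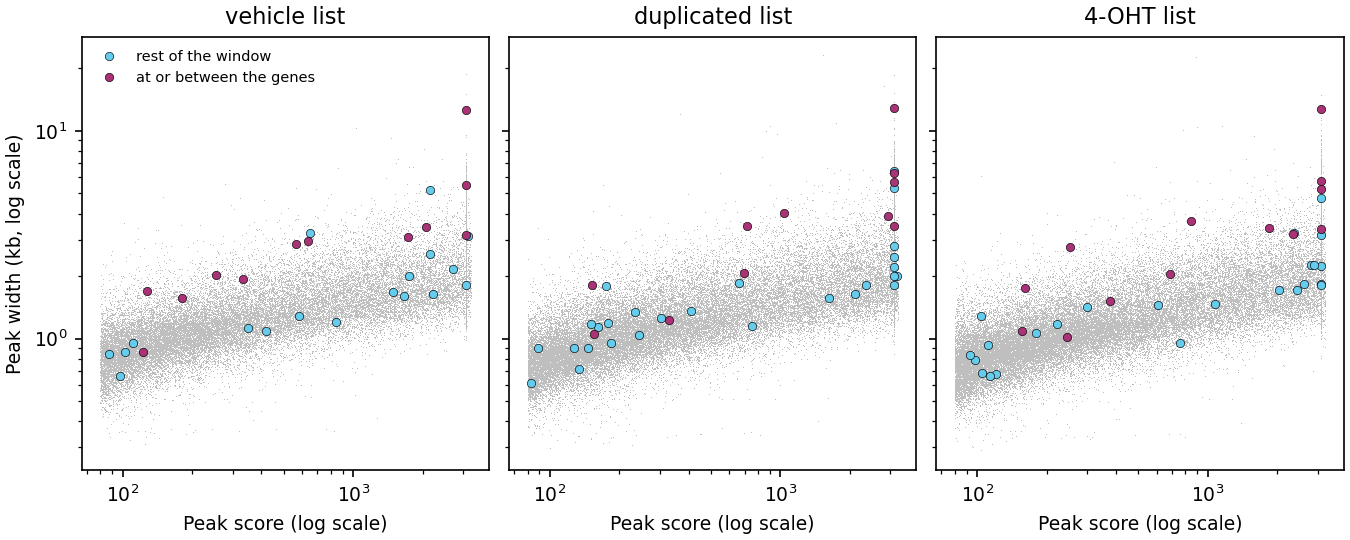
Width (kb, log scale) against score (log scale) of all peaks of each list (grey), with the peaks at or between the genes (purple) and those of the rest of the window (blue). Most purple points lie near the upper edge of the cloud, at low and high scores, and some lie inside it, as most blue points do.

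Below Malat1, 17 sites were found, of which 9 were in all lists. The 5 sites of the window that reached 3100 in every list include one here that is narrow, from 5786047 to 5788058, with a score of 3100 throughout and widths of 1806, 2012 and 1841 bp in the vehicle, duplicated and 4-OHT lists. The site from 5723805 to 5730360 was a single peak of 6440 bp (score 3100) in the duplicated list. It was cut into 3131 bp (score 3142) and 3213 bp (651) in the vehicle list, and into 3173 bp (3100) and 3218 bp (2372) in the 4-OHT list. The cut came at nearly the same place in both, after 5726935 and after 5727031. The other broad site, from 5739189 to 5744719, was a single peak of 5209 bp (score 2162), 5311 bp (3100) and 4733 bp (3100), and its start varied by 798 bp.

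The other 6 shared sites below Malat1 were narrower. In the order vehicle, duplicated and 4-OHT, the site from 5770079 to 5772082 scored 1490, 3213 and 2605 at widths of 1674, 2004 and 1840 bp. The site from 5730592 to 5732434 scored 843, 2105 and 2439 at 1199, 1639 and 1709 bp, and the one from 5748581 to 5750439 scored 420, 661 and 611 at 1088, 1859 and 1460 bp. At these sites the vehicle list had the lowest score and the narrowest peak. The weak ones were at 5704188 to 5705538 (103, 305 and 223, with 864, 1251 and 1170 bp), 5745775 to 5746897 (111, 243 and 180, with 956, 1045 and 1059 bp) and 5779952 to 5780710 (97.3, 134 and 121, with 661, 714 and 676 bp). Here too the vehicle list was lowest and narrowest, with the duplicated list highest.

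The 8 sites below Malat1 that some list lacked were all weak and were all absent from the vehicle list. Both other lists had those at 5713398 to 5714534 (scores 161 in the duplicated list and 92.9 in the 4-OHT list, 1137 and 832 bp) and at 5758426 to 5760238 (234 and 111, 1347 and 929 bp). The duplicated list alone had peaks at 5705745 to 5706646 (146, 902 bp), 5715531 to 5716720 (179, 1190 bp), 5757269 to 5758226 (184, 958 bp) and 5778043 to 5778653 (83.2, 611 bp). The 4-OHT list alone had peaks at 5710870 to 5711654 (97.7, 785 bp) and 5755424 to 5756106 (105, 683 bp). No site was found in the vehicle list alone.

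Above Neat1, on the side of Frmd8, peaks resumed after the stretch without any and were of ordinary width. In the order vehicle, duplicated and 4-OHT, the strongest were at 5911618 to 5913914 (scores 2715, 3100 and 3100, with 2154, 2203 and 2240 bp) and at 5877096 to 5878973 (2227, 3100 and 3100, with 1645, 1817 and 1818 bp). More strong sites stood toward the upper end of the window, at 5923467 to 5926003 (1749, 3100 and 2815, with 2008, 2472 and 2256 bp), 5944023 to 5946810 (2155, 3100 and 2883, with 2543, 2788 and 2261 bp) and 5939562 to 5941380 (1654, 2341 and 2038, with 1611, 1807 and 1711 bp). None of these peaks was as wide as 3 kb, a width reached at or between the genes by 5 of 12 peaks in the vehicle list, 7 of 11 in the duplicated list and 7 of 13 in the 4-OHT list. Weaker shared sites were at 5874417 to 5876035 (580, 1624 and 1078, with 1289, 1563 and 1466 bp), 5893650 to 5894823 (350, 752 and 755, with 1121, 1154 and 951 bp) and 5870430 to 5871926 (87.2, 407 and 301, with 843, 1364 and 1425 bp).

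The few sites above Neat1 that the vehicle list lacked scored no more than 175. Apart from the peak beside the broad interval, both other lists had one at 5885330 to 5886499 (151 in the duplicated list and 113 in the 4-OHT list, 1170 and 659 bp). The duplicated list alone had peaks at 5929307 to 5930208 (88.5, 902 bp) and 5931383 to 5932279 (127, 897 bp).

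**Figure D5:**
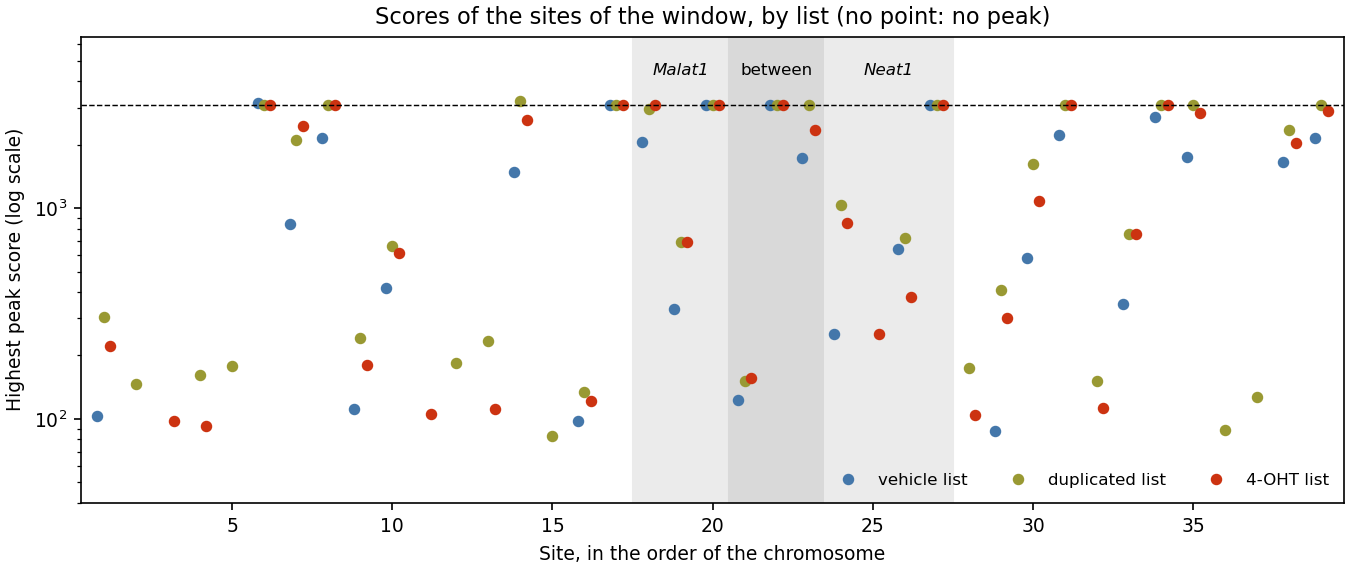
Highest peak score (log scale) of the 39 sites of the window in the order of the chromosome, 1 colour per list, with no point where a list has no peak; shading marks the sites at Malat1, between the genes and at Neat1, and the dashed line is a score of 3100. The sites missing from a list scored from 83.2 to 253, and 5 sites reached at least 3100 in every list.

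Over the window, 26 of the 39 sites, or 66.7% (Wilson 95% interval 51% to 79.4%), had a peak in all 3 lists, and 61.1% of all sites of the series did. At or between the genes this held for 9 of 10 sites. Of the 33 sites of the 4-OHT list, 7 lacked a vehicle peak, 21.2% (10.7% to 37.8%), against 29.6% in the whole series. Of the 36 sites of the duplicated list, 10 lacked one, 27.8% (15.8% to 44%), against 26.6%. In the other direction, 0 of the 26 vehicle sites lacked a 4-OHT peak (a count of 0 allows a share of up to 11.5%), and the series had 3.87%. Against the duplicated list it was again 0 of 26, with 4.39% in the series. When the lists were cut to equal length, which leaves out weak peaks of the longer lists, 1 site of the 4-OHT list lacked a vehicle peak in place of 7, and 1 vehicle site lacked a 4-OHT peak in place of 0. The shares of the series at equal length were not computed, so these counts have nothing to be set against. At full length, each of these intervals and limits includes the share of the series, so the window was not seen to stand apart in which sites were called.

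In the window as in the series, scores were mostly higher and peaks mostly wider in both other lists than in the vehicle list. Where the 4-OHT and vehicle lists had 1 peak each and both scores were below 3100, the 4-OHT score was the higher at 14 of 14 sites (78.5% to 100%), and at 90.2% of such sites in the series. The median ratio of scores was 1.68 in the window (1.23 to 3.45) and 1.62 in the series. Between the duplicated and vehicle lists, the duplicated score was the higher at 11 of 11 sites (74.1% to 100%), and at 91.1% in the series, with median ratios of 2.15 and 1.79. Both comparisons share the vehicle list. The 4-OHT peak was the wider at 19 of 22 sites with 1 peak in each list, 86.4% (66.7% to 95.3%), against 68% in the series. The duplicated peak was the wider at 21 of 21 sites (84.5% to 100%), against 74.5% in the series, a share that lies below this interval. The window was chosen by its widths in these same lists, and adjacent sites depend on each other. These width shares therefore cannot show that the window departs from the series. The median ratio of widths was 1.08 against 1.06 in the series for the 4-OHT list, and 1.11 against 1.08 for the duplicated list. The relation of these differences to depth or digestion was not tested.

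Scores of at least 3100 were held by 5 of 30 peaks of the window in the vehicle list, 12 of 38 in the duplicated list and 9 of 37 in the 4-OHT list. The shares, 16.7% (7.34% to 33.6%), 31.6% (19.1% to 47.5%) and 24.3% (13.4% to 40.1%), were above the 7.85%, 14.7% and 10.4% of all peaks in those lists. The interval of the vehicle list includes its share of all peaks and those of the other lists do not. Width and score go together in these lists, the window was chosen by width, and adjacent peaks depend on each other. The shares at 3100 therefore cannot show that the window departs from the series. Peaks next to the window were of both kinds. In the vehicle and 4-OHT lists the nearest one below it scored 3100 (3261 and 3452 bp) and the first one inside 103 and 223, while in the duplicated list these were 195 (2009 bp) and 305. Above the window the last peak inside scored 2155, 3100 and 2883, and the next one outside 852, 85.6 and 157 in the vehicle, duplicated and 4-OHT lists.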

How the data were processed

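DNase-seq peak lists of 4 libraries were used, as deposited by the authors. Per the submitters' processing notes, BWA 0.6.2, SAMtools and MACS 1.4.1 were used with mm9. Settings, use of the input and depth are not given in the sources used here. Digestion of the nuclei used, per the labels' protocols, 200 to 300 U/ml of DNase I, a range picked for its signal at selected regions, and DNA under 500 bp was sequenced. Each peak's score is used as the authors deposited it. MACS writes it as minus 10 times the log10 of a p-value, which no file header states. Scores began at 80 and piled up at 3100. Starts are counted from 1, on mm9. The gene positions come with the definition of the window. Peaks were merged into sites by an overlap of 1 bp with Python 3.11.15. The merge was tested on simulated data and checked against bedtools 2.31.1. Wilson intervals (scipy 1.17.1) cover counting error alone, and adjacent sites depend on each other. Nothing in the labels says that replicates were separate cultures. The members and comparisons were chosen with earlier results of these data known. All peaks of the window are given, and other broad peaks are the 5 widest of chromosome 19. The plan to describe genes of paraspeckle proteins needed an mm9 annotation and was not carried out. Of the 2 members, Malat1 matched a RefSeq promoter, and Neat1 has no sequence printed. Figures used matplotlib 3.10.9. Alternatives were a score of at least 100, lists of equal length (35149 peaks), an overlap of 50%, merging or joining within 500 bp, a window 50 kb longer on each side, other rankings and leaving out each library. The ranking of 250 kb stretches, gene intervals 1 kb longer and the removal of the repeated list were chosen after seeing the data.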

Additional observations from a re-analysis of the deposited data

How the results depend on the processing

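Of 86 recomputed values, 66 stayed close to the reported ones and 20 moved. Close meant counts within 1.5 times, gene ranks and widths within 1 SD over the lists, and ranks of 250 kb stretches unchanged. The Neat1 ranks had no spread, so any change there counted as moved, and the SD at Malat1 came from differing sites. Some of the 66 could not have moved, as given below. With lists of equal length, 1 site of the 4-OHT list lacked a vehicle peak in place of 7, the one inside Neat1, and 1 vehicle site lacked a 4-OHT peak in place of 0, since this setting leaves out the weakest peaks (lowest scores kept 138 for duplicated and 148 for 4-OHT). Shares of the series were not computed at this setting. The rank of the Neat1 interval was 1 on chromosome 19 with a score of at least 100, with equal length, with joined peaks and with the longer gene interval. Of these settings only joining could have moved it, since the others take out narrower peaks or keep the same interval. The rank was 3, 7 and 3 over all chromosomes, and by score 5, 10 and 10 (vehicle, duplicated, 4-OHT), with ties at 3100. The widest peak at Malat1 is the start peak in the vehicle and duplicated lists and the 3′ end peak in the 4-OHT list, so its values do not follow 1 site. Its ranks over all chromosomes were 881, 1073 and 176 (1041 for the 4-OHT start peak), and by score 5 (vehicle) and 10 (duplicated). Joining peaks within 500 bp raised the mean width at Neat1 to 18673 bp and the mean over these differing sites at Malat1 from 3960 to 7515 bp, where the duplicated list then gave 13657 bp and rank 2. Without the library of the vehicle list, the mean widths were 12818 bp at Neat1 and 4365 bp at Malat1 (differing sites), with 30 sites in every list. Without that of the 4-OHT list they were 12766 and 3323 bp, with 26 sites. Leaving out either deposit of the repeated list could change nothing, since the other copy remained. Leaving out both copies gave 29 sites. With all other 250 kb stretches laid at shifted places, the window ranked 2 in each list, and with a score of at least 100 or equal length it ranked 1 in each. No paired analysis was possible, because each treatment has 1 list that was deposited under it alone, and no result comes from a test. Where a list has no peak, none was called at a depth that is unknown.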
